A study of Mus musculus with 12 samples.

Results

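The nuclear-encoded subunits of the mitochondrial respiratory chain and ATP synthase were followed across rods and whole retina of mice with and without Shp2 in rods. Members were the genes whose symbol begins with Nduf followed by a, b, c, s or v and a digit, with Uqcr, with Cox4 to Cox8 or with Atp5, together with Sdha, Sdhb, Sdhc and Sdhd, pseudogenes named -ps left out. The rule uses names only and found 91 of the 56748 genes listed: 40 of complex I, 4 of complex II, 8 of complex III, 21 of complex IV and 18 of ATP synthase (complex V). Ndufa4 and Ndufa4l2, which carry complex I names, were counted with complex IV, where NDUFA4 is now placed.

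Polyadenylated RNA was sequenced in 12 libraries from 2-week-old mice, 3 in each of 4 groups. Rod RNA was obtained by translating ribosome affinity purification (TRAP), in which a Cre-switched HA tag on the ribosomal protein Rpl22 allows ribosomes of Cre-expressing cells, with the mRNA on them, to be pulled down by antibody. Whole-retina RNA is the lysate before that pull-down. Control mice (Het) were RiboTag;Shp2fl/+;i75-Rod-Cre and knockout mice (KO) were their littermates with both alleles floxed, RiboTag;Shp2fl/fl;i75-Rod-Cre. All groups therefore carried the RiboTag allele, a Cre driven by the rhodopsin promoter, and at least 1 floxed allele of Shp2 (Ptpn11). The sample titles call the controls wt, although their genotype is recorded as heterozygous. Mice per library are not given in the sources used here, so p-values measure the spread between libraries.

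Electrons from NADH enter the chain at complex I and those from succinate at complex II. They pass through ubiquinone to complex III and by cytochrome c to complex IV, which reduces oxygen. Complexes I, III and IV pump protons across the inner membrane, and ATP synthase uses the returning protons to make ATP. Rods pack their mitochondria into the inner segment and are among the most oxygen-demanding cells of the body, while also making lactate by aerobic glycolysis. Most subunits are encoded in the nucleus, translated on cytosolic ribosomes and imported, whereas a small hydrophobic core is encoded and translated inside the mitochondrion. Several complex IV subunits exist as paralogues used in different tissues.

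The nuclear factors best known for driving these genes are NRF1, the ETS family factor GABP and YY1. RefSeq promoter windows (GRCm38.p6, 250 bases before to 50 after a start) were matched by symbol for 69 of 90 symbols, giving 74 windows. The NRF1 palindrome (GCGCA followed by its reverse complement) was present in 5 of these windows (6.76%), against 0.971% of all 32851 windows. The ETS core CCGGAAG was present in 17 (23.0%, against 8.86%) and the YY1 motif AAGATGGC in 10 (13.5%, against 2.75%). The TATA motif TATAAA was found in 9 (12.2%), close to the 13.6% of all windows. Both strands were read, and none of the stretches shown here holds a second of these motifs. Member windows held a median of 57.5% G and C, against 52.7% in all windows, and the part of this in the motif shares was not tested. A match is a run of letters and not evidence that the factor was bound. The 100 bases upstream of the start are shown for 3 members with the NRF1 palindrome and 1 with the ETS core (capitals), as examples of 2 of the 3 motifs commoner in member promoters than in the rest. The windows are chr15:102671048-102671147 (minus strand, Atp5g2), chr5:108434400-108434499 (minus, Atp5k), chr17:56717662-56717761 (plus, Ndufa11) and chr9:50603850-50603949 (minus, Sdhd), in which the ETS core lies on the opposite strand.
Atp5g2: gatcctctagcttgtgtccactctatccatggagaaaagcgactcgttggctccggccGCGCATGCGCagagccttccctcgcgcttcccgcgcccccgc
Atp5k: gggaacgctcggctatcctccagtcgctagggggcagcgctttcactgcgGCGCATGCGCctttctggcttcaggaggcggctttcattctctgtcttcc
Ndufa11: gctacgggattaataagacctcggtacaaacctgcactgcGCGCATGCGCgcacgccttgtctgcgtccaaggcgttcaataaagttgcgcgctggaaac
Sdhd: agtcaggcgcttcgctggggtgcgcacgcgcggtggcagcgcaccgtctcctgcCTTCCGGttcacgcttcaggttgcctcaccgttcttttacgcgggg

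The deposited values are read counts brought to a common total within each fraction, and here they were scaled again with TMM (trimmed mean of M values) over all 12 libraries. Totals were 16263948 to 16265259 in rods and 14525527 to 14527992 in retina. All 13 rod markers were higher in Het rods than in Het retina, and all members of the cone, Muller glia, amacrine and ganglion cell lists were lower. The bipolar list fell in 9 of 10. The 13 subunits encoded by the mitochondrial genome, which cytosolic ribosomes do not translate, were all lower, with a median log2 fold change of -6.14 (range -6.54 to -5.63). The 9 genes of a lens list (crystallins, lens filament and membrane proteins) summed to 117 to 210447 in Het retina and 56704 to 688473 in KO retina, against 6.95 to 5518 in Het rods and 2239 to 15679 in KO rods. Ptpn11 measured 2907, 2804 and 2813 in Het rods against 2028, 2424 and 2277 in KO rods, a log2 fold change of -0.26 (SE 0.09, adjusted p = 0.064, limma) with no overlap of the groups. The floxed exon is not resolved in gene-level values, so this checks the labels only in part.

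Of the 91 members, 80 had values high enough to be tested in rods and 84 in retina (about 10 in at least 3 libraries). The 11 not tested in rods are the paralogues Cox4i2, Cox6a2, Cox6b2, Cox7b2, Cox8b, Cox8c and Ndufa4l2, the little-read Ndufa11b, Ndufb11b and Ndufs6b (2.6 to 10.4), and a second entry for Atp5o that was listed at 0 in all 12 libraries. Cox8c and Ndufb11b were also listed at 0 throughout. Together the members took 0.973% to 1.05% of the deposited total in Het rods, 0.979% to 1.01% in KO rods, 0.764% to 0.871% in Het retina and 0.785% to 0.871% in KO retina. The ranges of rods and retina did not overlap in either genotype.

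Levels per kb of transcript, which allow genes to be compared, spanned a wide range within every complex. ATP synthase led with Atp5b, the catalytic beta subunit, at 20771 ± 310 per kb (SD, n = 3) in Het rods, followed by Atp5a1, the alpha subunit, at 6372 ± 289.9. In complex IV Ndufa4 stood at 13717 ± 785 and Cox6c at 4647 ± 305, and in complex III the hinge protein Uqcrh stood at 9354 ± 829 and Uqcrb at 5580 ± 161. In complex I the accessory subunit Ndufb11 stood at 2678 ± 227. In complex II the flavoprotein Sdha reached 3420 ± 36.2 and the membrane anchor Sdhd 1011 ± 32.3. Each of these 9 genes was lower per kb in Het retina, for example Atp5b at 7877 ± 402 and Sdha at 1516 ± 50.5.

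The first comparison asks which subunits are over-represented in the RNA that rods translate. In Het mice 38 of 83 members tested were higher in rods than in retina (45.8%), while 21.6% of all 16110 genes tested were called higher. A gene counted as called where limma's adjusted p was under 0.05 and its log2 fold change exceeded 0.5 in size. A further 3 members were lower, where 36.8% of all genes were called lower. These 3 passed the filter only through retina, so their count is a description and not a test. Groups did not overlap for 41 members that were higher and 3 that were lower, against 28.6% and 40% of all genes. The median log2 fold change was 0.46 over the members and -0.11 over all genes. Without Het retina library 1 the members called higher numbered 24 (30%, against 17.9% of all genes). Direction against 0 depended on scaling, as 70 of 83 members lay above 0 with TMM and 44 with library size alone, which lowered the median of all genes by 0.40. Relative to the median of all genes, which moves with the scaling, 76 of 83 members lay above it, and 57 of 80 without Het retina library 1 and 61 of 80 without Het retina library 3. In such a mixed-tissue comparison, fewer cells of other types and less RNA per cell cannot be told apart.

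Called higher were 15 of 37 members tested in complex I (40.5%), 3 of 4 in complex II (75%) and 5 of 8 in complex III (62.5%). In complex IV they were 5 of 17 (29.4%) and in ATP synthase 10 of 17 (58.8%), against 21.6% of all genes. Medians were 0.41, 0.68, 0.72, 0.17 and 0.50 in complexes I to V. The complex IV share was the nearest to that of all genes, but its 17 members include Cox4i2, Cox6b2 and Cox8b. These passed the filter only through retina, so they could not be called higher and they lower the share and median of complex IV. The complexes were not tested against each other. Among the 7 nuclear-encoded core subunits of complex I, which hold its flavin and iron-sulfur clusters, 5 rose, with a median of 0.86.

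Atp5b had the largest rise of all members. Its scaled values were 39134, 40278 and 39981 in Het rods against 15040, 15887 and 14348 in Het retina, a log2 fold change of 1.23 (SE 0.10, adjusted p = 1.22e-05, limma). The 3 rod libraries agreed closely and all lay far above the retina libraries. Ndufa10, an accessory subunit of complex I, measured 4062, 4481 and 4765 in rods and 1799, 1949 and 1644 in retina (log2 fold change 1.13, SE 0.12), again with no overlap of the fractions. Ndufa4 measured 8167, 8022 and 8914 against 3283, 3143 and 3778 (1.13, SE 0.11), and Uqcrc1, a core protein of complex III, 2943, 3405 and 3381 against 1375, 1896 and 1007 (1.06, SE 0.22). Uqcrc1 was the more variable of this pair in retina, where its lowest and highest libraries differed by far more than those of Ndufa4.

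In complex II 3 of the 4 genes rose. Sdha measured 9814, 9915 and 10024 in Het rods against 4539, 4246 and 4402 in Het retina (1.0, SE 0.09), and the anchors Sdhc and Sdhd rose by 0.82 and 0.55 on the log2 scale. Sdhb, the iron-sulfur subunit, measured 521.0, 631 and 650.3 in rods and 522.3, 716 and 435 in retina, and these overlapped (log2 fold change -0.04, SE 0.21).

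**Figure D1:**
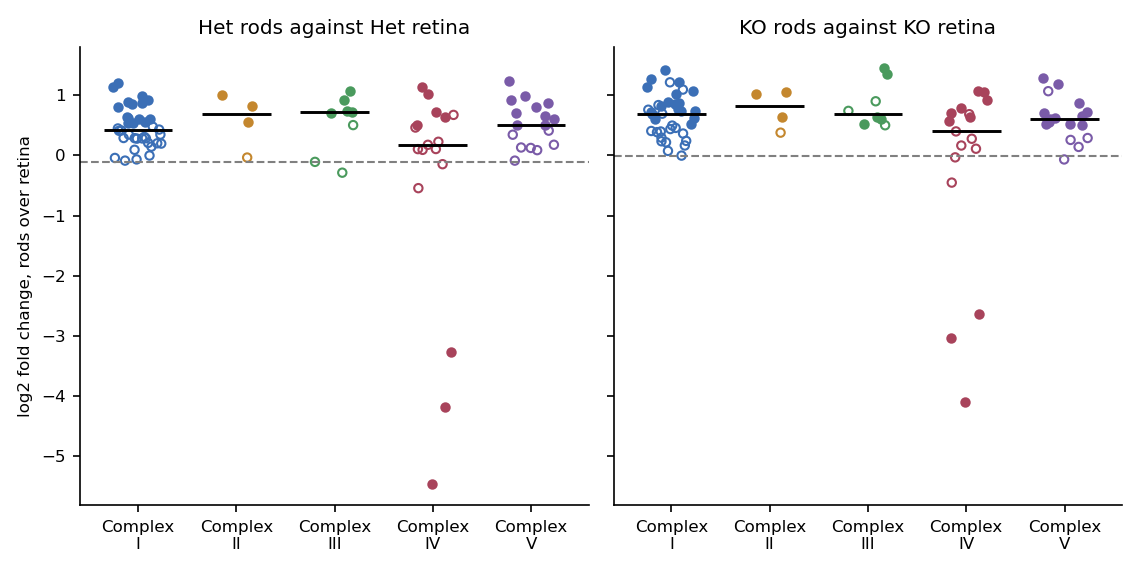
The y axis gives the log2 fold change of each tested member in rods over retina and the x axis its complex, in Het (left) and KO mice (right). Filled points passed the call rule, open points did not, black lines are medians per complex and the dashed line is the median of all genes tested (-0.11 and -0.02). Most members of complexes I, II, III and V lie above the dashed line, and the points far below it are paralogues in complex IV.

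The members listed as lower in Het rods were minor paralogues of complex IV that passed the filter only through retina, where they are high, so their values are given as a description. Cox4i2, the form of subunit 4 known from lung and hypoxia, measured 1.2, 1.1 and 2.3 in Het rods and 118, 217 and 106 in Het retina (log2 fold change -5.46, SE 0.36). Cox6b2, known from testis, measured 2.3, 2.3 and 0 against 38.3, 79.1 and 50.9 (-4.18, SE 0.42). Cox8b, known from heart and muscle, was listed at 0 in all Het rod libraries and measured 12.8, 15.5 and 21.1 in Het retina. All of these were near or at 0 in rods and detected in every Het retina library. Without any 1 of the Het retina libraries they failed the filter of 3 libraries, and 0 members were called lower.

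The partners of these genes were abundant in both fractions. Cox4i1 made up 99.9% of the COX4 pair per kb in Het rods (99.9% to 100.0% by library) and 93.6% ± 0.47 in Het retina. Cox6b1 made up 99.9% ± 0.10 of its pair in Het rods and 94.4% ± 1.22 in Het retina. In the COX7A family both main forms were in use. Cox7a2, the widely expressed form, held 53.7% ± 2.43 in Het rods and 51.0% ± 2.27 in Het retina, Cox7a2l, which takes part in joining complexes III and IV, held 45.3% ± 2.69 and 47.3% ± 2.70, and the muscle form Cox7a1 held 0.995% ± 0.309 and 1.66% ± 0.43. These shares differed between fractions by about the spread between libraries or less for Cox7a2 and Cox7a2l. In KO rods Cox7a2 held 47.0% ± 0.76 and Cox7a2l 52.0% ± 0.33. Cox6a1, Cox7b and Cox8a were the forms in use in every group, with Cox6a2 and Cox7b2 listed at 0 in all rod libraries and at most 1.8 and 6.1 in retina. Ndufa4l2, known as a hypoxia-induced relative of Ndufa4, measured 0 to 1.2 in the 6 rod libraries, 5.1, 24.1 and 14.9 in Het retina and 11, 9.6 and 67.4 in KO retina.

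Subunit c of ATP synthase is encoded by Atp5g1, Atp5g2 and Atp5g3, whose mature proteins are identical. Atp5g3 supplied the largest part, 61.6% ± 4.75 per kb in Het rods, 47.9% ± 4.0 in KO rods, 50.6% ± 11.0 in Het retina and 50.4% ± 10.4 in KO retina. Atp5g1 went from 17.2% ± 1.96 in Het rods to 25.3% ± 2.45 in KO rods, and Atp5g2 from 21.2% ± 2.88 to 26.8% ± 1.67. The library ranges of each of the Atp5g genes were apart between Het and KO rods, whereas in retina they overlapped. The transcripts of Atp5g1 and Atp5g2 contain 56.4% and 56.7% G and C, and that of Atp5g3 contains 50.4%.

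**Figure D2:**
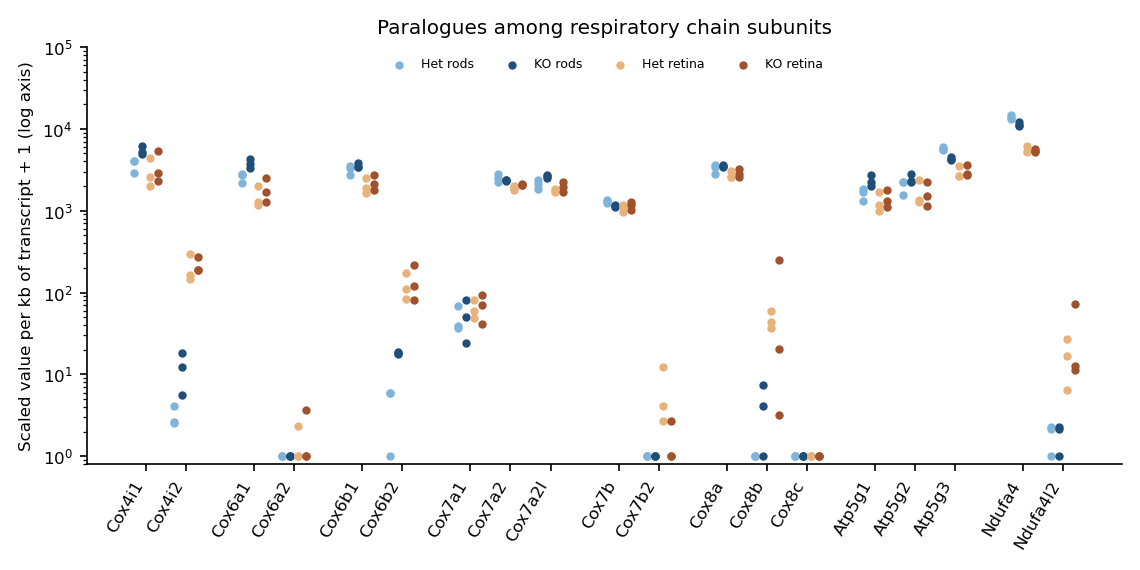
The y axis gives the scaled value per kb of transcript plus 1 on a log axis, for the paralogues named on the x axis, with 1 point for each of the 3 libraries of each group (colour). Cox4i2, Cox6b2 and Cox8b sit at or near the bottom of the axis in Het rods. In KO rods Cox4i2 (11.1 ± 6.40 per kb) and Cox6b2 (17.3 ± 0.33) lie somewhat higher. In retina each lies above its own rod points, apart from the lowest KO retina library of Cox8b (0.8 before division by length). Cox4i1, Cox6b1 and Cox8a are far above them in every group.

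In KO mice the same comparison called 45 of 83 members higher (54.2%, against 25.8% of all 16121 genes) and 3 lower (against 36.5%). These 3 would again have failed the filter in rods alone, so their count is no test. Cox4i2 did reach the filter value in KO rod library 3 (deposited value 11). Without any 1 KO retina library, 1 of the 3 was still tested and called lower. The median was 0.63 over the members and -0.02 over all genes, and 77 of 83 members lay above the latter (69 of 81 without KO retina library 1 or 2). Above 0 lay 76 under TMM and 49 under library size alone. Called higher in both genotypes were 29 members, 9 in Het mice and not in KO mice, and 16 in KO mice and not in Het mice. Whether the fraction effect itself differed between genotypes is the interaction given further on. Groups did not overlap for 54 members that were higher and 3 that were lower, against 32.8% and 39.4% of all genes. Without KO retina library 1 the higher calls numbered 18 (22.2%, against 18.9% of all genes), and without KO retina library 2, 22 (27.2%, against 21.6%), so the excess over all genes was then small. By complex, 18 of 37, 3 of 4, 5 of 8, 7 of 17 and 12 of 17 members rose in complexes I to V.

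The largest rises were those of Uqcrc1, which measured 4115, 4468 and 3926 in KO rods and 1438, 1173 and 1998 in KO retina (log2 fold change 1.45, SE 0.19, adjusted p = 0.000142, limma), and of Ndufv1. Ndufv1, the complex I subunit that binds NADH and its flavin, measured 2996, 3382 and 3017 against 1080, 927 and 1552 (1.41, SE 0.18). Uqcrq, a small subunit of complex III, followed at 492, 721 and 408 against 188, 119 and 366 (1.35, SE 0.38). Its highest retina library came close to its lowest rod library, which did not hold for Uqcrc1 or Ndufv1. Atp5b rose by 1.28 (SE 0.11). The members listed as lower would have failed the filter in rods alone and are described without a test. They were Cox4i2 (8.2, 3.4 and 12.7 in KO rods against 136, 138 and 199, a log2 fold change of -4.09, SE 0.39), Ndufa4l2 (-3.03, SE 0.66) and Cox6b2 (8.2, 7.9 and 8.1 against 56.1, 37.4 and 100.2, or -2.63, SE 0.38).

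The central question of the design is what loss of Shp2 does in rods. In KO rods against Het rods 13 of 80 members tested were called higher (16.2%, against 11.2% of all 13055 genes tested) and 0 lower (against 1.91%), with 43 of 80 members and 5005 of all 13055 genes at an unadjusted p below 0.05. The median log2 fold change was 0.10, and -0.01 over all genes. Complex I held 9 of the members called, namely Ndufb7, Ndufs7, Ndufa13, Ndufa11, Ndufa7, Ndufa2, Ndufs8, Ndufa8 and Ndufv1. The others were Atp5d and Atp5g1 of ATP synthase and Cox4i1 and Cox6a1 of complex IV. In complexes II and III 0 of 4 and 0 of 8 were called. All of these calls rest on the spread and scaling within the 6 rod libraries. With all 12 libraries in one fit, 0 members and 0 genes passed, with 27 of 80 members at an unadjusted p below 0.05 (24.0% of all genes, limma). That fit takes in the wider spread of the retina libraries and also scales over all 12 libraries. The part of each was not tested. Among the marker lists, 3 of 13 rod genes, 1 of 9 Muller glia genes and 1 of 6 amacrine genes tested were also called higher in KO rods, and the lens sums were those given above. The part of any of these in the calls was not tested. The rod libraries here are the same as in the rod against retina comparisons, so those results are not independent of this one.

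The group total did not move in the same way. The sum over all members ran from 183218 to 198386 in the Het rod libraries and from 186086 to 189542 in the KO rod libraries, so the groups overlapped. ATP synthase summed to 87975 ± 1968 (SD, n = 3) in Het rods and 83747 ± 2122 in KO rods, and complex I to 46047 ± 2913 and 45402 ± 1402. On this scale the complex III sum was narrowly lower in every KO rod library, at 16417 to 17786 in Het rods and 15730 to 16230 in KO rods. As a share of the deposited total it overlapped, at 0.0872% to 0.0945% in Het rods and 0.0833% to 0.0881% in KO rods. The separation therefore depended on the scaling. Sums of the other complexes overlapped between the genotypes. With the scaling of the calls, 23 of the 80 members were higher in every KO rod library than in every Het rod library. A further 20 were lower in every one, against 23.7% and 20.4% of all genes.

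Ndufb7, an accessory subunit of the complex I membrane arm, measured 203, 287 and 258 in Het rods against 543, 926 and 536 in KO rods (log2 fold change 1.47, SE 0.26, adjusted p = 0.0102, limma). The core subunit Ndufs7, which holds the last iron-sulfur cluster before ubiquinone, measured 140, 235 and 182 against 401, 627 and 367 (1.39, SE 0.27). Atp5d, the delta subunit of the ATP synthase central stalk, measured 399, 570 and 483 against 1012, 1431 and 891 (1.27, SE 0.23). KO rod library 2 was the highest and Het rod library 1 the lowest for each of these genes. Ndufa13 measured 410, 560 and 502 against 966, 1219 and 850 (1.12, SE 0.17), and Ndufa11 122.7, 218 and 177 against 309, 494 and 263 (1.1, SE 0.31). Both are accessory subunits of the membrane arm. The other 8 members called rose by 0.58 (Ndufv1) to 0.97 (Ndufa7). Without Het rod library 1, 7 members were called (8.75%, against 6.18% of all genes), without KO rod library 1, 8 (10%, against 9% of all genes), and without KO rod library 3, 18 (22.5%, against 12.2%).

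Uqcr11, Uqcr10 and Uqcrq, small subunits of complex III named after their values were seen, differed by similar amounts without passing. Uqcr11 measured 68.3, 164 and 166 in Het rods against 299, 513 and 241 in KO rods (1.51, SE 0.49, adjusted p = 0.0846, limma). Uqcr10 gave 1.02 (SE 0.32, adjusted p = 0.0649) and Uqcrq 0.81 (SE 0.25, adjusted p = 0.0538). Both groups were apart for each of the genes. At the other end stood Uqcrb, a further small subunit of complex III, at 3043, 2887 and 3027 against 2153, 2085 and 2078 (-0.42, SE 0.08, adjusted p = 0.00477), short of the fold limit. Atp5mpl, Atp5j, Ndufv2, Ndufs4 and Ndufb1 lay between -0.41 and -0.36 and were also lower in every KO rod library.

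For the abundant Atp5b, Sdha and Ndufa10, and for Cox7a2, no difference was detected. Atp5b measured 39134, 40278 and 39981 in Het rods against 38889, 35410 and 40622 in KO rods (0.03, SE 0.06, adjusted p = 0.771). Sdha gave 0.04 (SE 0.08), Ndufa10 -0.04 (SE 0.08) and Cox7a2 0.00 (SE 0.09), and the Het and KO ranges of all of these overlapped. Other abundant members were apart. Ndufa4 (8167, 8022 and 8914 against 7360, 6690 and 6821) and Uqcrh (4605, 5277 and 5468 against 4323, 3792 and 4126) were lower in every KO rod library. Uqcrc1 (2943, 3405 and 3381 against 4115, 4468 and 3926) was higher in every one.

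The members called higher tended to be rich in G and C, which the naming rule did not use. Their transcripts contained a median of 57.8% G and C (range 51.7% to 61.1%), and those of the 67 members not called a median of 50.5% (42.0% to 58.9%). Across the 80 members the log2 fold change rose with transcript GC content (Spearman's rho 0.65, Pearson's r 0.69, across genes that share the same 6 libraries). To show the contrast, the first 120 coding bases are printed for the called members with the 3 largest rises and for the 3 members with the lowest values that have an annotated coding sequence. They were read 5′ to 3′ from the start codon of 1 GENCODE M21 transcript a gene (GRCm38), and capitals mark G and C. The genes are Ndufb7 (chromosome 8, 83566671 to 83571626, plus strand), Ndufs7 (chromosome 10, 80249121 to 80256794, plus), Atp5d (chromosome 10, 80138632 to 80145818, plus), Uqcrb (chromosome 13, 66900617 to 66905378, minus), Atp5mpl (chromosome 12, 111961375 to 111966977, minus) and Atp5j (chromosome 16, 84827866 to 84835625, minus).
Ndufb7: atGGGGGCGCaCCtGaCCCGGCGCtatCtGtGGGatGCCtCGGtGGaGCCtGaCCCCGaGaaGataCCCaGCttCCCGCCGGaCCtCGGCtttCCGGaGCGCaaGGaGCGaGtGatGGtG
Ndufs7: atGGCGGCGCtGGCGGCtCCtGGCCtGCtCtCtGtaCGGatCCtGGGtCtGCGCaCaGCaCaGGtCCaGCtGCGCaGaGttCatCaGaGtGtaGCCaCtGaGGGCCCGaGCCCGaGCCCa
Atp5d: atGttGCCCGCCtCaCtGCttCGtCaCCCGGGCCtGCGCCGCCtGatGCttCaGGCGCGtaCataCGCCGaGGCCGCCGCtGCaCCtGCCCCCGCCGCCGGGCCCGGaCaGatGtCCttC
Uqcrb: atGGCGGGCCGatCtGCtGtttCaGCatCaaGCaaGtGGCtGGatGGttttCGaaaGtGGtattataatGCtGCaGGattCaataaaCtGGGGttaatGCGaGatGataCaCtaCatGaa
Atp5mpl: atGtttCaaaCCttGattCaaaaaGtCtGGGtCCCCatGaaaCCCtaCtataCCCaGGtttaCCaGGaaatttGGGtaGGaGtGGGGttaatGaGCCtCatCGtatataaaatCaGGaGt
Atp5j: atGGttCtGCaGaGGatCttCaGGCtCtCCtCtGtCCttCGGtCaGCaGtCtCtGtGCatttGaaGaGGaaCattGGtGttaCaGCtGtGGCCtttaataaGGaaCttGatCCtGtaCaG

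G and C made up 66.7%, 66.7% and 71.7% of the bases shown for Ndufb7, Ndufs7 and Atp5d, and 44.2%, 41.7% and 47.5% of those for Uqcrb, Atp5mpl and Atp5j. Over the whole coding sequence the values were 61.1%, 61.6% and 61.9% against 42.9%, 43.7% and 43.5%. The transcript used for Atp5j is richer, at 56.0%, than its coding part.

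GC content also ordered the libraries within a genotype. The 80 members tested in both fractions were ranked by transcript GC content, and the 26 richest (54.7% to 61.1%) were set against the 26 poorest (42.0% to 49.0%). Relative to the mean of the 6 rod libraries, the difference of medians was -0.54, -0.22 and -0.31 (log2) in Het rods 1, 2 and 3 and 0.35, 0.55 and 0.18 in KO rods. In retina it was -0.13, 0.58 and -0.56 in Het libraries and 0.01, -0.42 and 0.50 in KO libraries. Rod libraries were therefore apart by genotype, whereas the retina genotypes overlapped and each spanned most of the range seen over all rod libraries. Ndufb7 itself measured 203, 524 and 114 in Het retina and 184, 178 and 626 in KO retina, a spread larger than its difference between KO and Het rods. Retina libraries also differed widely in lens RNA, as given above, and its part in these values was not tested.

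**Figure D3:**
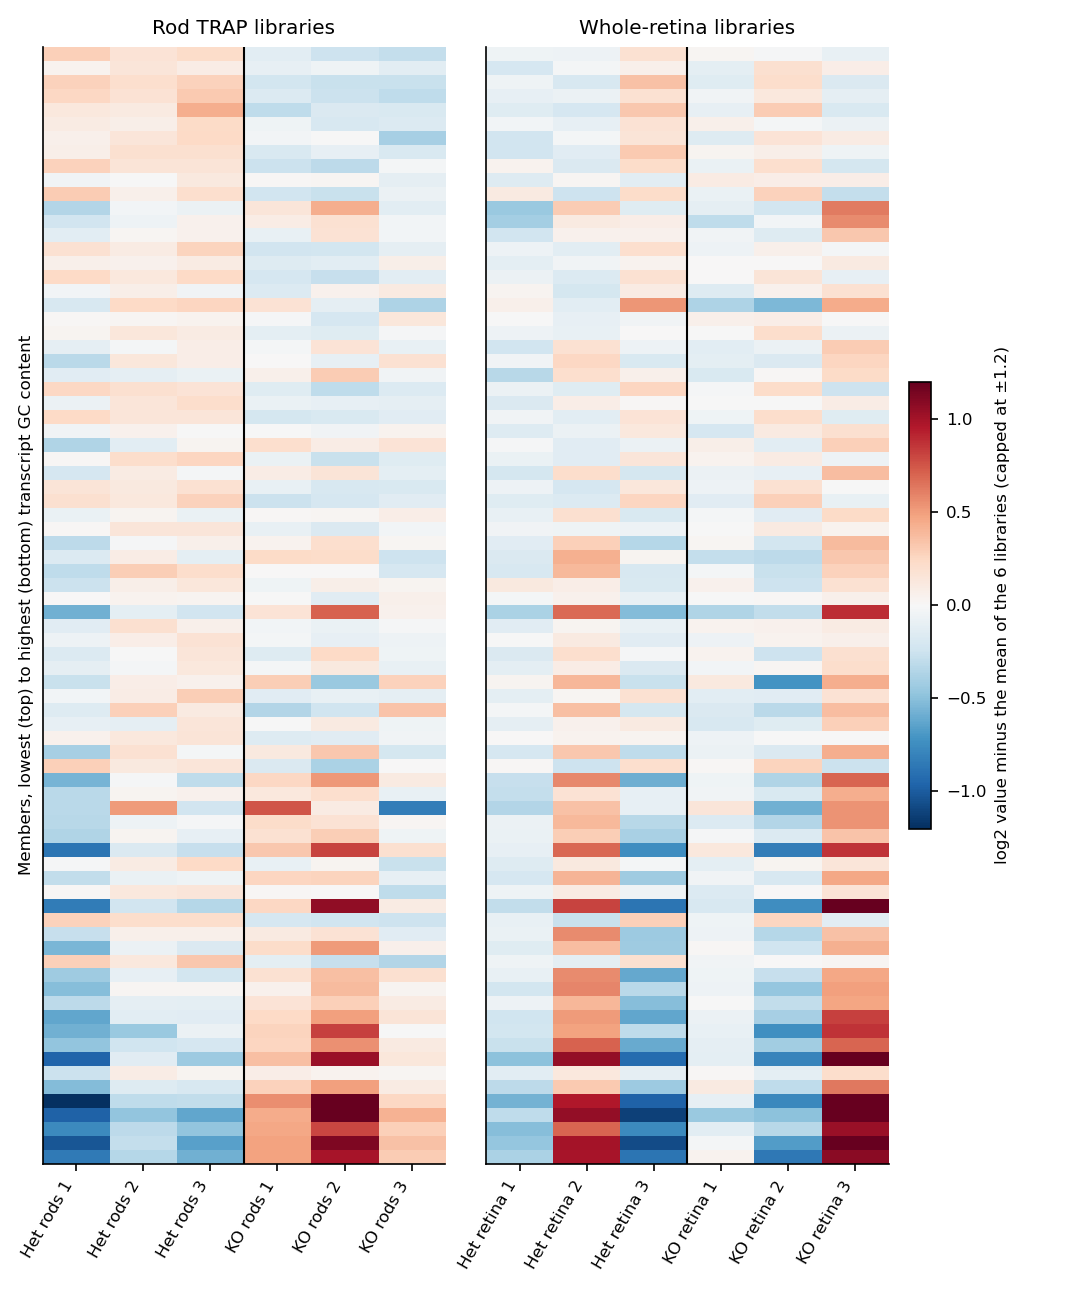
Each row is 1 of the 80 members tested in both fractions, from lowest (top) to highest (bottom) transcript GC content, and each column a library. Colour is the log2 value minus the mean of the 6 libraries of that fraction. The GC-rich rows at the bottom are low in Het rods 1 to 3 and high in KO rods, and in retina they are high in Het 2 and KO 3 and low in Het 3 and KO 2.

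**Figure D4:**
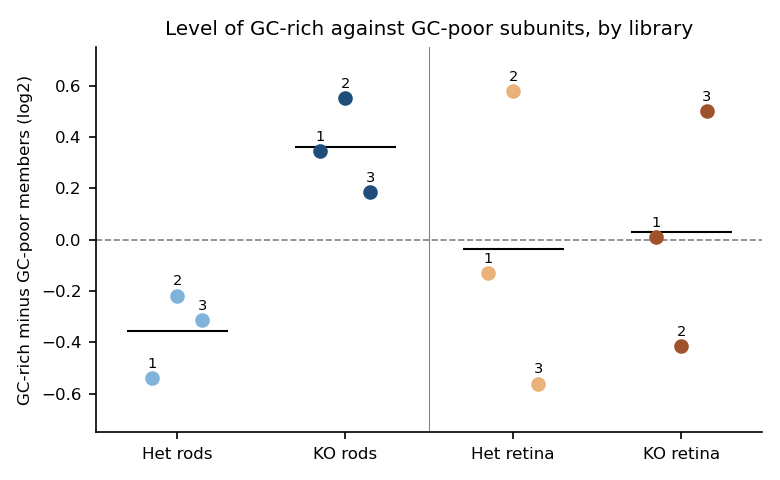
The y axis gives the median log2 level of the 26 GC-rich members minus that of the 26 GC-poor members in each library, relative to its fraction, with replicate numbers beside the points and group means as lines. Het and KO rods do not overlap (-0.54 to -0.22 and 0.18 to 0.55), and the retina groups do.

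For each library, a smooth curve of level on transcript GC content was then removed from all genes before the fit. In KO rods against Het rods this left 2 members higher, Ndufb7 (0.74, SE 0.13, adjusted p = 0.0087, limma) and Ndufs7 (0.61, SE 0.13, adjusted p = 0.0178), where 1.16% of all genes were called higher. It gave 4 members lower, Ndufb1 (-0.88), Atp5j (-0.81), Ndufb2 (-0.57) and Ndufb9 (-0.51), where 1.56% of all genes were called lower, and rho with GC content fell to 0.09. The GC content of Ndufb1 came from a transcript model without a coding sequence. With the GC content of the coding part instead, 5 members were higher (Ndufb7, Ndufs7, Atp5d, Ndufa13 and Ndufa8; 3.43% of all genes) and 2 lower (Ndufb2 and Cox5b; 1.83%). Ndufb7, Ndufs7 and Ndufb2 were thus called under both corrections, and Atp5j, Ndufb9 and Ndufb1 under transcript GC content and not coding GC content, which Ndufb1 lacks. A trend removed in this way can hold technical and genotype effects alike, which cannot be told apart here.

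**Figure D5:**
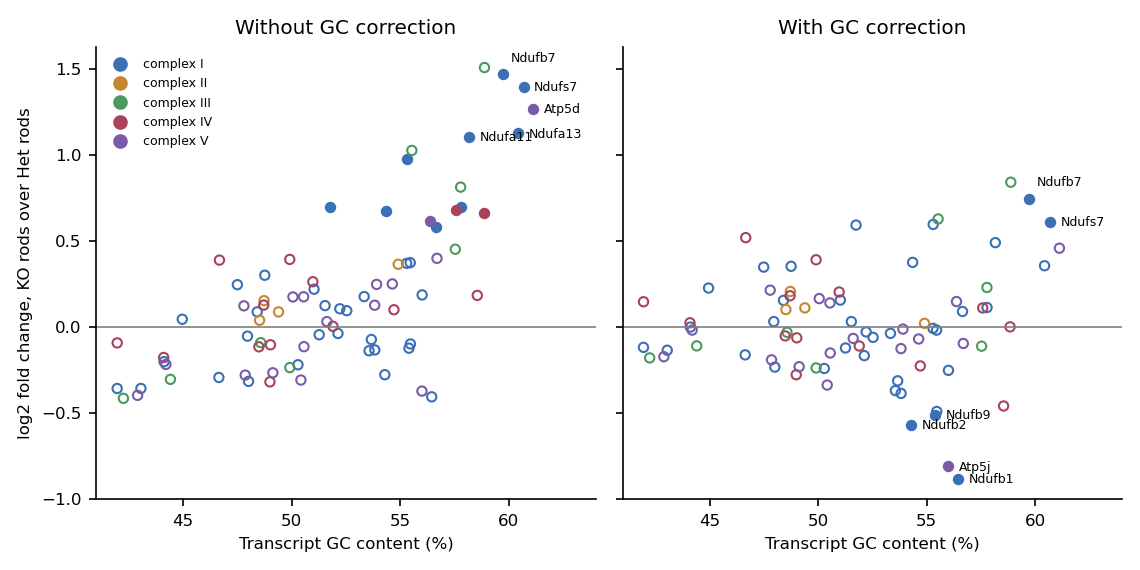
The x axis gives transcript GC content and the y axis the log2 fold change of KO rods over Het rods for the 80 members tested, before (left) and after (right) removing that curve. Filled points passed the call rule and colours are complexes. The 13 filled points on the left lie at 51.7% to 61.1% G and C, and on the right Ndufb7 and Ndufs7 are filled above 0 and 4 genes below.

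In the rod against retina comparison of Het mice the correction acted the other way. Members called higher there went from 38 to 46 of 83 (55.4%, against 25.2% of all genes). Before it, 7 of the 26 GC-rich members had been called, and 16 of the 26 GC-poor. Ndufs7, not called before it (SE 0.49), was called at 0.78 after it. In KO mice the change was small. There 48 were called (57.8%, against 27%) after it and 45 (54.2%, against 25.8%) before it, and the median over the members went from 0.63 to 0.61. Before it, 11 of the 26 GC-rich and 16 of the 26 GC-poor members had been called in KO mice. The lower calls numbered 3 in each genotype, against 36.4% and 36.6% of all genes. They were the minor paralogues named above for that genotype, which would have failed the filter in rods alone.

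In whole retina 0 of 84 members differed between KO and Het mice (0% of all 16863 genes, limma), and 0 of 84 had an unadjusted p below 0.05 (0.83% of all genes). Groups did not overlap for 2 members that were higher and 1 that was lower, against 1.53% and 1.97% of all genes. Log2 fold changes ran from -0.50 (Cox8b, SE 1.14) to 0.57 (Ndufa4l2, SE 0.78) with a median of 0.05. Atp5b measured 15040, 15887 and 14348 in Het retina and 15200, 15407 and 15907 in KO retina (0.02, SE 0.12). Errors were larger here than in rods, the median coefficient of variation of the 80 members being 16.4% and 17.0% in Het and KO retina and 9.85% and 9.10% in Het and KO rods. The largest belonged to Ndufs7 in Het retina (77.4%) and Uqcr11 in KO retina (82.0%).

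Whether the KO effect differed between rods and retina was tested directly over all 12 libraries. Of 80 members 0 passed at an adjusted p below 0.05 (0% of all 12921 genes, limma interaction term), and 11 had an unadjusted p below 0.05, against 3.69% of all genes. Estimates ran from -0.51 (Atp5j, SE 0.20) to 1.13 (Ndufb7, SE 0.76). The lowest adjusted p was 0.718, so no member was shown to respond differently in rods and retina.

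The wider pathway was read from lists of genes that work with the subunits. Their counts stand against the shares of all genes called higher and lower, 21.6% and 36.8% in Het mice and 25.8% and 36.5% in KO mice. Cycs, the somatic cytochrome c, was higher in rods in both genotypes (0.64 and 0.61), and the testis form Cyct was not tested. Of 15 complex I assembly factors 6 were higher and 1 lower in Het rods against Het retina, and 5 and 0 in KO mice. Nubpl, which delivers iron-sulfur clusters to complex I, led in Het mice at 1.23, followed by Ndufaf6 at 0.78, and Tmem186 was the one lower (-0.54). In KO mice Ndufaf3 (1.14) and Ecsit (1.12) led. Complex II factors gave 2 higher of 4 in each genotype, Sdhaf4 (1.14 and 0.89) and Sdhaf2 (0.72 and 0.67), complex III factors 1 of 6 (Uqcc3, 0.98 and 1.43) and ATP synthase factors 1 of 4 (Tmem70, 0.74 and 0.64).

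Of the complex IV assembly factors, 17 of 20 were tested. In Het mice 5 were higher, led by Sco1 (0.81), a copper carrier, and Cox15 (0.81), which makes heme a, and 2 were lower, so the share called higher was near that of all genes. In KO mice 6 were higher, led by Cox10 (1.15) and Cox15 (0.99), and 2 lower. Cox17, a copper chaperone, was lower in both (-1.5 and -1.73), as was Coa5 (-0.54 and -0.69).

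In KO rods against Het rods the calls among assembly factors were near the share of all genes (11.2% higher and 1.91% lower). Ecsit (0.60), Ndufaf3 (0.56), Uqcc2 (0.59) and Cox16 (1.5) were higher and Ndufaf4 was lower (-0.56), and after GC correction 1 of these 5, Cox16, was still called (1.78).

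Of 15 transcriptional regulators of respiratory genes, 8 were higher and 0 lower in Het rods against Het retina, and 9 and 0 in KO mice. Esrrb, an orphan nuclear receptor, led in both (1.59 and 1.96), followed by Ppargc1a, a coactivator of mitochondrial biogenesis, in Het mice (1.11) and by Polrmt, the mitochondrial RNA polymerase, in KO mice (1.36). Nrf1 (1.06 and 1.2), Gabpa (0.81 and 0.61), Gabpb1 (1.08 and 1.03) and Yy1 (0.59 and 0.57), whose motifs were searched above, were all called higher in both. In KO rods against Het rods 3 were higher, Esrra (1.68), Polrmt (1.42) and Pprc1 (0.64), and 0 lower, while Nrf1 (0.23), Gabpa (-0.36) and Ppargc1a (-0.15) were not called. With GC correction Esrra (0.83) and Polrmt (0.62) were still called.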

How the data were processed

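Polyadenylated RNA of 12 mouse libraries was sequenced after SMART-Seq cDNA synthesis. The authors deposited 1 table whose values are treated as a signal: whole numbers per gene, read counts multiplied by 1 factor a library to a common total within each fraction and rounded, as inferred from totals that differ by 0.0081% in rods and 0.0170% in retina. The processing notes name CASAVA 1.8.2, HISAT2, DESeq2, edgeR and GRCm39 without roles; counting tool, annotation and strand are not given in the sources used here. Sequencing depth is therefore not known, and no count model was used, although one had been planned for counts.

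Groups follow genotype and tissue labels, and replicate numbers the titles. The table held 0 columns of other samples. Values were scaled by TMM factors from genes past the filter (a value of about 10 in at least 3 libraries, sum of at least 15), 2 was added, and limma 3.58.1 (R 4.3.3; trend and robust options) was fitted on log2 values of the libraries compared only. Fold changes are on the log2(value + 2) scale, which understates those of low genes, and can differ from ratios of the printed values, which were scaled over all 12 libraries. P-values were adjusted by Benjamini-Hochberg over all genes tested, and a call required this value to be under 0.05 and the log2 fold change to exceed 0.5 in size. With 3 libraries against 3 an exact permutation test cannot go below 0.1.

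Transcript length and GC content came from 1 GENCODE M21 transcript a gene (protein coding first, APPRIS principal, then the shortest), known for all 91 members and 52073 of 56748 genes. The GC trend was a lowess curve (span 0.3) per library. Sequences are from GENCODE M21 and RefSeq (GRCm38.p6); coordinates refer to GRCm38, not to the authors' build. Promoter entries not matched include Cox4i2, Ndufa2, Cox6c, Atp5mpl, Uqcrb, Ndufb9, Atp5a1, Ndufs1, Cox6a2, Uqcrc2, Cox4i1, Ndufa4l2, Cox8c, Uqcrq, Sdhc, Ndufb11b, Cox6c2, Ndufa11b, Ndufb4c and Ndufs6b. Python 3.11.15 and matplotlib 3.10.9 were used. The fits were also run on simulated data, in which the set spread between libraries was smaller than that of the retina libraries. That run is therefore no check of the retina or interaction results.

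Named were, per comparison, at most the 5 largest rises and falls among called members, the 2 highest members per kb of each complex, paralogue families, members below the filter and at most 2 called genes per list and direction. Ndufv2, Ndufs4, Sdhb, Sdhc, Atp5mpl, Atp5j and Ndufb1, the level and the uncalled complex III members, and Nrf1, Yy1, Gabpa and Gabpb1 beside their motifs were chosen after their values were seen. The individual values of 1 member are not reported here. Members and lists were chosen with earlier results of these data known. Same-numbered libraries deviated together in Het rods and retina (correlations 0.47, 0.41 and 0.25). These numbers were taken as pairs only in a separate setting, the replicate block, which left 38 and 3 calls there. Errors and p-values printed with the results are from fits without that block. Paralogues and pseudogene copies such as Cox6c2 and Ndufb4c can share reads with their parent genes, and their values are uncertain.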

Additional observations from a re-analysis of the deposited data

How the results depend on the processing

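The number of members called higher in rods moved with the setting. With library size alone, 9 were higher in Het mice (10.8%, against 7.25% of all genes) and 8 in KO mice (9.64%, against 7.1%). These higher shares were close to those of all genes. Lower were 5 in Het mice (against 45.9% of all genes) and 6 in KO mice (against 48.7%), the minor paralogues described above included. Relative to the median of all genes, 76 of 83 members in Het mice and 77 of 83 in KO mice still lay above it. This scaling shifts the median of all genes by -0.40 and -0.53, and the share of higher calls among all calls from 37.0% to 13.6% and from 41.5% to 12.7%, and from 85.4% to 67.3% in KO against Het rods. With no filter on low values 5 members were lower in Het mice, against 30.3% of all genes. Leaving out 1 library gave 24 (without Het retina 1) to 39 higher and 0 to 3 lower in Het mice, where the minor paralogues fail the filter without any Het retina library, and 18 (without KO retina 1; 22 without KO retina 2) to 43 higher and 1 to 3 lower in KO mice.

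In KO against Het rods, GC correction gave 2 higher and 4 lower (against 1.16% and 1.56% of all genes). GC content of the coding part (chosen after seeing the data) gave 5 and 2 (against 3.43% and 1.83%). The replicate block with GC correction gave 5 and 4 (against 1.46% and 1.78%), and all 12 libraries in one fit 0 higher (against 0%). Without 1 library the higher calls numbered 7 (without Het rod 1; 8 without KO rod 1) to 18. Median-of-ratios scaling, a pseudocount of 0.5, no filter, library size and removal of rod-depleted genes gave 10 to 14. These were 11.8% (no filter) to 17.5% (rod-depleted genes removed) of members, against 5.93% and 12.1% of all genes in the same settings. In retina 0 members were called under each setting run, and the interaction gave 11 members at an unadjusted p below 0.05, 18 with GC correction, 7 with library size alone and 9 with the replicate block, with 0 at an adjusted p below 0.05 in each (limma).

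The replicate block gave 38 higher and 3 lower in Het mice (against 23% and 38.2% of all genes). In KO mice it gave 43 and 3 (against 25% and 36.4%). In KO against Het rods it gave 14 and 0 (against 12.2% and 2.27%), and in retina 0, so it moved no count by over 1.5 times. Same-numbered libraries did not all deviate together outside the Het fraction comparison (lowest correlation -0.01 in KO mice, 0.03 in rods and -0.59 in retina).

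Signs turned for Atp5j in Het mice (-0.068, coding GC content), for Atp5g3 (-0.024), Ndufc2 (-0.017), Uqcrc2 (-0.019), Atp5l (-0.032) and Atp5k (-0.0094) in KO mice with library size alone, and for Cox6a1 in KO against Het rods (-0.0018, GC correction). The cause was not tested. Read depth is unknown, which limits statements about low genes.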
